A study of Homo sapiens with 24 samples.

Results

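ZNF711, ZFX and PHF8 were followed in 24 RNA libraries of human stem-cell-derived heart cultures, as 3 genes of the 62757 in the count table. They were found by matching the table's Ensembl identifiers to gene symbols, and all 3 were among the 17724 genes with enough counts to be tested. The cells came from the human embryonic stem cell line HES3, with a GFP reporter at NKX2-5 and an mCherry reporter at NR2F2 in every library, controls included. Knockouts had been made with CRISPR-Cas9 against LHX2, ZNF503 or ZNF711, and TRAC, a T-cell receptor gene, was the target in the control cells. Each target was taken through 2 protocols of Wnt-modulated embryoid body culture of at most 14 days, labelled AM and VM. These are read here as the atrial protocol, with retinoic acid added at day 4, and the ventricular protocol, without it. Target and protocol gave 8 groups of 3 libraries, numbered 1 to 3 in each group. The labels state neither whether these were separate cultures nor how many clones were used, so p-values measure the spread between these samples, which may be technical.

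ZNF711 and ZFX are zinc-finger transcription factors of one family that bind at promoters. PHF8 is a histone demethylase of the KDM7 family: its PHD finger reads the trimethyl mark on histone H3 lysine 4 at active promoters, and its catalytic domain removes methyl groups from H3 lysine 9 and H4 lysine 20. ZNF711 is known to bring PHF8 to some of its targets, KDM5C among them, and loss of either gene causes X-linked intellectual disability. ZFX is known for its part in the self-renewal of stem cells.

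All 3 genes lie on the X chromosome. In GENCODE 29 on GRCh38, ZNF711 (ENSG00000147180) spans chrX:85244032-85273362 on the plus strand with 5.004 kb of exons. ZFX (ENSG00000005889) spans chrX:24149173-24216255 on the plus strand with 9.037 kb. PHF8 (ENSG00000172943) spans chrX:53936676-54048958 on the minus strand with 9.015 kb. The start of ZNF711 is 71 bases from that of SATL1, which runs the other way, and the antisense gene ZFX-AS1 overlaps ZFX by 482 bases. SATL1 had 1 to 16 counts in a library and ZFX-AS1 0 to 5, beside at least 120 for ZNF711 and 400 for ZFX. Whether the counting used strand is not given in the sources used here.

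The promoter windows below are placed on RefSeq starts on GRCh38.p14, with CG pairs in capitals. RefSeq and GENCODE starts differ for ZFX and PHF8, so the windows describe the RefSeq starts only. Each holds 300 bases, 250 before the start and 50 after, 5′ to 3′ on the strand of the gene. The ZNF711 window, chrX:85243741-85244040 on the plus strand, also contains the GENCODE start of SATL1. The ZFX window, chrX:24148732-24149031 on the plus strand, ends before the GENCODE start of ZFX at 24149173. RefSeq lists 3 windows for PHF8, and the one richest in CG pairs, chrX:54044424-54044723 on the minus strand, is shown. None of the 3 contains the GENCODE start of PHF8 at 54048958.
ZNF711: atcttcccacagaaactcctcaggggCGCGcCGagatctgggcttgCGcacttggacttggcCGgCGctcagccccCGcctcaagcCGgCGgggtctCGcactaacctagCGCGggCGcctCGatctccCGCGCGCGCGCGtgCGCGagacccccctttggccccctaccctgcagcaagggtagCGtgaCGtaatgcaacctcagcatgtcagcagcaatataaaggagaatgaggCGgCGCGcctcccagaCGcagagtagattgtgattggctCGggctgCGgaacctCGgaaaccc
ZFX: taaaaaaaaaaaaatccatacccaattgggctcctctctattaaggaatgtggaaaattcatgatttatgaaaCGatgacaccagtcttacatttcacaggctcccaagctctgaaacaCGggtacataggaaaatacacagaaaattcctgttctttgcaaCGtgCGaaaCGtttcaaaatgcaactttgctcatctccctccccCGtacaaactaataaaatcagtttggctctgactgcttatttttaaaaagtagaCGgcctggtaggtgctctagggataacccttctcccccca
PHF8: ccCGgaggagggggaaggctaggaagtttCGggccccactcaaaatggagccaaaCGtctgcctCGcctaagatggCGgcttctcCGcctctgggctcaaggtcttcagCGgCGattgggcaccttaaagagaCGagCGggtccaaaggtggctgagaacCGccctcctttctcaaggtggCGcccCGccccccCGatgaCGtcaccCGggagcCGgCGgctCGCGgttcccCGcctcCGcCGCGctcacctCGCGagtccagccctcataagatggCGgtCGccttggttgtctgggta
The windows of ZNF711 and PHF8 hold 31 and 28 CG pairs, and that of ZFX holds 7, against a median of 14 over all 35116 promoter windows. The other PHF8 windows hold 7 and 1, so how ZFX and PHF8 compare depends on the window chosen. AGGCCT, the core of the motif known for ZFX and its own reverse complement, was searched in each. It was in none of the windows of ZNF711, ZFX, PHF8, PHF2, KDM7A and KDM5C, and in 3826 of all windows (10.9%).

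Libraries held 2899786 to 7438010 counts, and 22261 to 25454 genes had a count. LHX2 itself had 2 to 27 counts in the LHX2 and TRAC libraries, too few to check that label. ZNF503 RNA was at 255 to 367 CPM, counts scaled for library size, in the AM libraries labelled ZNF503 against 103 to 122.8 in AM TRAC, and at 19.1 to 45.3 against 8.82 to 16.2 in VM. That goes against a loss of the transcript, so directions drawn from the libraries labelled ZNF503 are directions against TRAC and no more. The summed level of the 7 cardiomyocyte markers (TNNT2, ACTN2, MYH6, MYH7, MYL7, TTN and NKX2-5) was 13938 to 27817 CPM in AM and 10693 to 39802 CPM in VM, and none was at 0 throughout. Endoderm markers (AFP, APOA1, TTR, FOXA2 and SOX17) summed to 129 to 1499 CPM in AM and 1017 to 17702 CPM in VM. The 4 VM libraries numbered 3, at 6001 to 17702 CPM, and the VM ZNF711 libraries, at 6110 to 17702 CPM, stood apart in this sum.

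All 3 genes were expressed in every library. Library sizes were scaled by edgeR with the TMM method, and CPM here are counts over that size. Since longer transcripts give more counts, CPM were divided by exon length where genes were compared. Over the 24 libraries ZFX was the most abundant per length at 14.4 ± 1.94 CPM per kb (SD, n = 24). ZNF711 was at 8.98 ± 2.46 and PHF8 at 8.77 ± 1.35 CPM per kb (SD, n = 24). Their spreads overlapped, so the last 2 are not ordered. In mean log2 CPM, without regard to length, ZFX lay above 90.8% of the tested genes, PHF8 above 82.2% and ZNF711 above 69.5%. KDM5C, the demethylase gene known as a ZNF711 target, was at 41.0 ± 3.02 CPM per kb (SD, n = 24).

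ZNF711 RNA was higher in the AM cultures than in the VM cultures, and it was the member with the largest difference between protocols. In libraries 1, 2 and 3 it stood at 55.5, 60.3 and 47.4 CPM in AM TRAC and at 48.0, 37.5 and 34.6 CPM in VM TRAC. In the LHX2 libraries it was at 56.2, 73.2 and 54.6 CPM in AM and 39.3, 40.6 and 43.2 CPM in VM. In those labelled ZNF503 it was at 62.9, 48.0 and 57.0 CPM in AM and 28.6, 36.2 and 34.2 CPM in VM. With LHX2 and ZNF503 as targets every AM library lay above every VM library, while with TRAC the highest VM library was above the lowest AM library. The share of all genes with groups separated in this way was not counted, here or below. In the libraries labelled ZNF711 it was at 55.8, 41.1 and 31.2 CPM in AM and 32.9, 33.9 and 25.9 CPM in VM, and these groups overlapped as well.

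Averaged over the 4 targets, ZNF711 was 1.48-fold higher in AM, a log2 fold change of 0.56 (SE 0.096, 95% interval 0.37 to 0.76, edgeR quasi-likelihood adjusted p 4.83e-05). Of all tested genes, 34.5% were called in this comparison, that is, had an adjusted p below 0.05, with 16.8% higher and 17.6% lower in AM. Of the calls 48.8% were thus higher in AM, and 60.3% when scaled by library size alone. AM was above VM in 12 of 12 pairs of libraries with the same target and number, by 0.21 to 1.14 on the log2 scale. How many genes had all 12 pairs on the same side was not counted. Of the 12 AM libraries, 8 were above every VM library. By p-value ZNF711 ranked 1497 of 17724 genes, and 75.0% of genes differed by less. The call was made in 27 of 27 fits with 1 library or 1 replicate number left out, with 0.51 to 0.61.

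**Figure D1:**
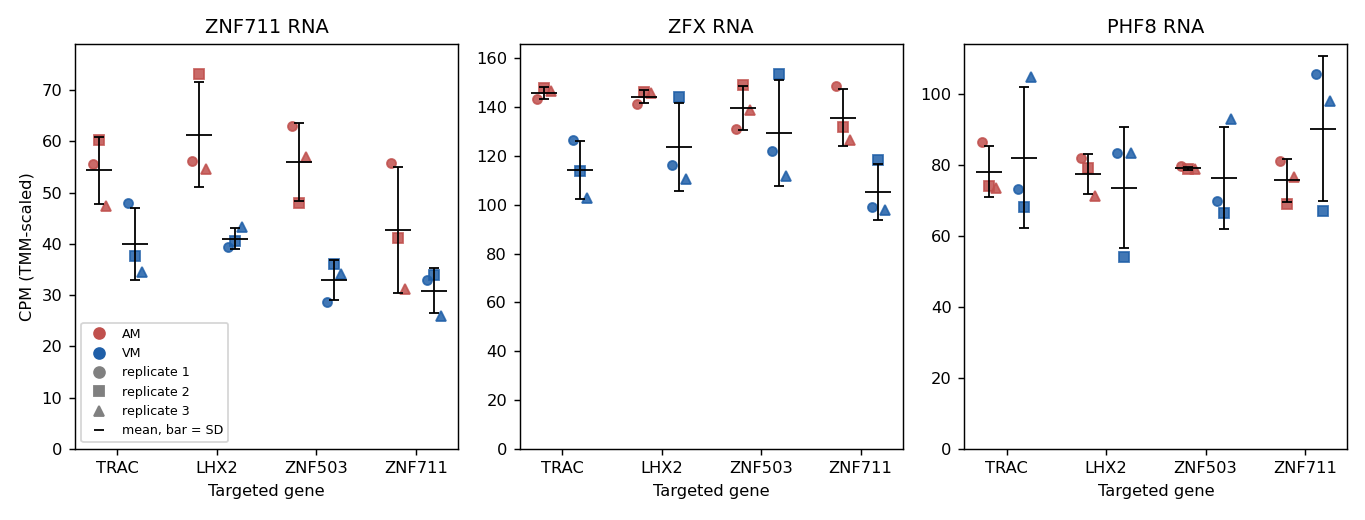
TMM-scaled CPM of ZNF711, ZFX and PHF8 in each of the 24 libraries, by targeted gene (horizontal axis) and protocol (colour), with the replicate number as the marker shape and the mean and SD of 3 libraries as black bars. ZNF711 runs from 31.2 to 73.2 in AM and 25.9 to 48.0 in VM, and PHF8 spreads more widely in VM than in AM.

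Within single targets the difference of ZNF711 was called in the libraries labelled ZNF503 only, and the differences between targets were not tested apart from the ZNF711 interaction below. There it was 0.76 (SE 0.193, edgeR adjusted p 0.0114), where 8.86% of genes were called. The adjusted p rose to 0.167 without the libraries numbered 1, to 0.0778 without those numbered 2, to 0.0675 without AM ZNF503 replicate 1 and to 0.0634 without VM ZNF503 replicate 1. The values were 0.44 (SE 0.190, edgeR adjusted p 0.144) with TRAC, 0.58 (SE 0.192, edgeR adjusted p 0.0609) with LHX2 and 0.47 (SE 0.195, edgeR adjusted p 0.113) with ZNF711 as target. The shares of genes called there were 11.3%, 8.56% and 13.2%. With the replicate number as a block the LHX2 value was called, at 0.57 (edgeR adjusted p 0.0169), and 15.7% of genes were called with it. The TRAC value remained without a call under every setting.

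ZFX RNA was also higher in AM, by a smaller factor. It stood at 143, 148 and 147 CPM in libraries 1, 2 and 3 of AM TRAC and at 127, 114 and 103 CPM in VM TRAC. In the LHX2 libraries it was at 141, 146 and 146 CPM in AM and 116, 144.3 and 110 CPM in VM. In those labelled ZNF503 it was at 131, 149 and 139 CPM in AM and 122, 154 and 112 CPM in VM. The highest of all 24 libraries was VM ZNF503 replicate 2, and in VM the library numbered 2 was the highest of its group with LHX2, ZNF503 and ZNF711 as targets. In the libraries labelled ZNF711 it was at 149, 132 and 126 CPM in AM and 98.9, 118 and 98.0 CPM in VM, so that the groups did not overlap, as with TRAC.

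Averaged over the 4 targets ZFX was 1.20-fold higher in AM, a log2 fold change of 0.26 (SE 0.067, 95% interval 0.13 to 0.40, edgeR adjusted p 0.0031). AM was above VM in 11 of 12 same-number pairs, and 9 of the 12 VM libraries lay below every AM library. The size was middling among genes, since 49.6% of genes differed by less. Without the libraries numbered 3 the value was 0.20 and the call was lost (edgeR adjusted p 0.0907), and in each of the other 26 left-out fits it was called. Within targets the values were 0.35 (edgeR adjusted p 0.0926) with TRAC, 0.22 (edgeR adjusted p 0.373) with LHX2, 0.11 (edgeR adjusted p 0.739) with ZNF503 and 0.37 (edgeR adjusted p 0.0713) with ZNF711. None was called, but with the replicate block the TRAC value, 0.35 (edgeR adjusted p 0.0194), and the ZNF711 value, 0.37 (edgeR adjusted p 0.0133), were. With the block 19.4% and 23.4% of genes were called in these comparisons.

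PHF8 RNA did not pass the test between protocols. It stood at 86.4, 74.1 and 73.6 CPM in libraries 1, 2 and 3 of AM TRAC and at 73.2, 68.1 and 105 CPM in VM TRAC. In the LHX2 libraries it was at 81.9, 79.1 and 71.1 CPM in AM and 83.3, 54.0 and 83.4 CPM in VM. In those labelled ZNF503 it was at 79.6, 78.9 and 78.7 CPM in AM and 69.9, 66.4 and 92.8 CPM in VM. The AM libraries lay inside the range of the VM libraries, and the highest VM library of each of these groups was numbered 3. In the libraries labelled ZNF711 it was at 81.2, 69.1 and 76.5 CPM in AM and 106, 67.0 and 98.0 CPM in VM, with 2 VM libraries above all AM ones.

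The log2 difference of PHF8 averaged over the targets was −0.05 (SE 0.094, 95% interval −0.24 to 0.14, edgeR adjusted p 0.716). AM was higher in 6 of 12 same-number pairs, and these followed the replicate number: AM was lower in 4 of 4 pairs numbered 3 and higher in 4 of 4 numbered 2. The averaged value was 0.11 without the libraries numbered 3, −0.17 without those numbered 2, and 0.03 when scaled by library size alone. Within single targets it ran from −0.25 (edgeR adjusted p 0.419, ZNF711) to 0.07 (edgeR adjusted p 0.890, LHX2). The spread itself differed between protocols as a description, with an SD of 4.88 CPM in AM and 16.8 CPM in VM (n = 12 each).

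**Figure D2:**
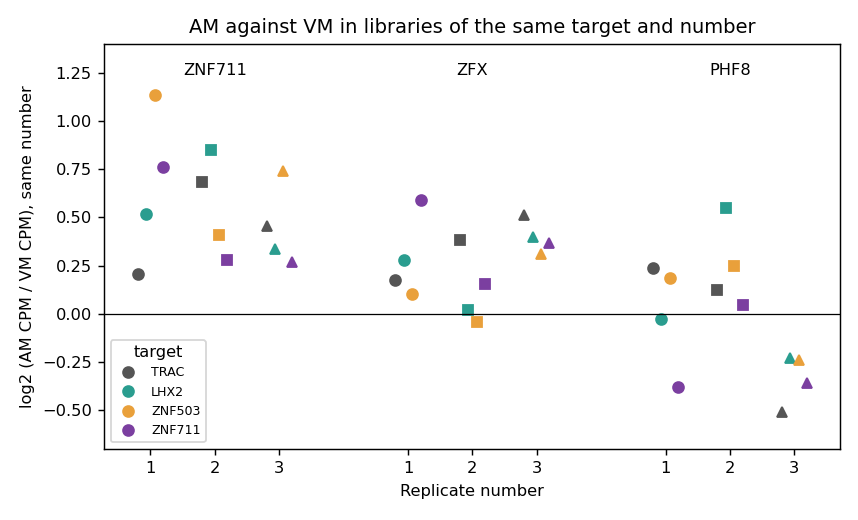
Log2 ratio of AM to VM CPM for libraries of the same target and number (vertical axis), by replicate number (horizontal axis) for ZNF711, ZFX and PHF8, coloured by target. The 12 ZNF711 points lie above 0, 11 of 12 ZFX points do, and the 4 PHF8 points of number 3 lie below 0.

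In these bulk samples fewer cells of a type and less RNA per cell cannot be told apart. The ranges of the following marker sums overlapped between protocols. Calls here are averaged over the 4 targets, where 16.8% of all genes were called higher and 17.6% lower in AM. Of the 7 cardiomyocyte markers summed above, 4 were called lower and 0 higher in AM (lowest edgeR adjusted p 7.56e-09). Fibroblast markers (COL1A1, PDGFRA, DCN and LUM) summed to 1713 to 2484 CPM in AM and 939 to 2480 CPM in VM, with 2 of 4 called higher in AM. Epicardial markers (WT1, UPK3B, TBX18 and ALDH1A2) summed to 15.2 to 90.8 and 13.6 to 51.5 CPM. Of 3 epicardial markers tested 1 was called higher and 1 lower in AM, with a median log2 difference of −0.26. Cell cycle markers summed to 165 to 267 CPM in AM and 180 to 441 CPM in VM, with 3 of 4 called lower in AM (lowest edgeR adjusted p 0.00039). Within single targets 2 of 4 were called lower with ZNF711 (median −0.89) and 0 of 4 with TRAC (median −0.03), LHX2 or ZNF503. The highest VM sum, 441 CPM, was in a VM ZNF711 library. Pluripotency markers summed to 106 to 142 and 91.3 to 364 CPM, with 2 of 3 tested called lower (lowest edgeR adjusted p 0.00028). Neural markers summed to 9.15 to 20.9 and 1.69 to 37.3 CPM, with 1 of 3 tested, PAX6, called higher (edgeR adjusted p 0.00014). None of these markers was at 0 in all libraries, and the part of any of these lists in the protocol differences was not tested. Ratios of raw counts within a library need no scaling factor and were added after the data had been seen. Per 100 PHF8 counts there were 40.8 to 92.5 ZNF711 counts in AM, with a median of 68.7, and 26.4 to 75.2 in VM, with a median of 48.9. AM was higher in 11 of 12 same-number pairs. Per 100 ZFX counts the ZNF711 medians were 38.2 in AM and 31.8 in VM, with AM higher in 9 of 12 pairs and overlapping ranges.

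In the order of the 8 groups by level the AM groups came before the VM groups for ZNF711 and ZFX. For ZNF711 the group means fell from 61.3 ± 10.3 CPM in AM LHX2 through 56.0 ± 7.54 in AM ZNF503, 54.4 ± 6.51 in AM TRAC and 42.7 ± 12.4 in AM ZNF711 to the VM groups (SD, n = 3 each). These were 41.0 ± 2.003 CPM in LHX2, 40.0 ± 7.06 in TRAC, 33.0 ± 3.902 in ZNF503 and 30.9 ± 4.34 in ZNF711. For ZFX the means of the 4 AM groups were 136 to 146 CPM and those of the 4 VM groups 105 to 129 CPM. For PHF8 VM ZNF711 was first at 90.2 ± 20.5 CPM and VM LHX2 last at 73.6 ± 17.0 CPM (SD, n = 3 each). In all 3 orders every group overlapped the next, so no neighbours were separated beyond their spread.

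The next question was whether targeting ZNF711 changed its own RNA or that of its paralog and partner. ZNF711 RNA had lower values in the libraries labelled ZNF711, with no call. In VM the 3 libraries, at 25.9 to 33.9 CPM, lay below all 3 TRAC libraries, at 34.6 to 48.0 CPM. In AM replicate 1, at 55.8 CPM, was inside the TRAC range, and replicates 2 and 3, at 41.1 and 31.2 CPM, were below it. The log2 differences from TRAC were −0.34 (SE 0.190, 95% interval −0.74 to 0.05, edgeR adjusted p 1) in AM and −0.37 (SE 0.194, 95% interval −0.77 to 0.03, edgeR adjusted p 0.567) in VM. The AM value was −0.58 without AM ZNF711 replicate 1 and −0.17 without AM ZNF711 replicate 3, and the VM value −0.22 without VM TRAC replicate 1. The shares of genes called were 0% in AM and 0.0169% in VM, so a member without a call was like nearly all other genes. Since a CRISPR deletion can leave the RNA in place, these levels do not measure how complete a knockout was.

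Averaged over both protocols ZNF711 differed from TRAC by −0.36 (SE 0.136, unadjusted p 0.0142, edgeR adjusted p 0.715), with 0.00564% of genes called. Set against the mean of TRAC, LHX2 and ZNF503 it was −0.35 (SE 0.114, 95% interval −0.59 to −0.12, edgeR adjusted p 0.230), with 0.0169% called. By p-value ZNF711 ranked 347 of 17724 genes there. With the replicate block this value was −0.36 (SE 0.101, edgeR adjusted p 0.0224) and was called, as were 1411 genes or 7.96% of all. Against TRAC alone the block gave an adjusted p of 0.121. In VM the endoderm sum was 6110 to 17702 CPM with ZNF711 as target and 2054 to 16513 CPM with TRAC, and the cardiomyocyte sum 10693 to 16530 and 14329 to 39802 CPM. Neural markers (4 genes) summed to 13.2 to 37.3 CPM in VM ZNF711 and 2.06 to 10.9 CPM in VM TRAC, cell cycle markers (4 genes) to 325 to 441 and 187 to 246 CPM, and pluripotency markers (4 genes) to 290 to 364 and 91.3 to 214 CPM. These 3 sums did not overlap between the VM groups. In AM the endothelial (4 genes), epicardial and neural sums did not overlap between the groups. Endothelial markers summed to 231 to 263 CPM in AM ZNF711 and 330 to 474 CPM in AM TRAC. Neural markers summed to 16.4 to 20.9 and 9.52 to 15.1 CPM. The highest epicardial sum in AM ZNF711 was 48.9 CPM and the lowest in AM TRAC 67.2 CPM. The cardiomyocyte, fibroblast, endoderm, pluripotency and cell cycle sums overlapped between these AM groups. Against TRAC all 7 cardiomyocyte markers had higher values with ZNF711 as target in AM (median 0.53) and lower values in VM (median −0.71). None was called by edgeR. In AM 3 and in VM 5 had an unadjusted edgeR p below 0.05, as had 618 and 1666 of all 17724 genes. Of the 3 neural markers tested, PAX6 was called higher within VM (edgeR adjusted p 0.0352) and against the other targets (edgeR adjusted p 0.0409). None of the 4 cell cycle markers was called by edgeR in these 2 comparisons, and their medians were 0.92 and 0.48. All 4 had an unadjusted edgeR p below 0.05 in both, as had 1666 and 2351 of all 17724 genes. The part of any of these lists in the ZNF711 value was not tested. The difference between the AM and VM effects of targeting ZNF711 was 0.03 for ZNF711 RNA (SE 0.271, 95% interval −0.53 to 0.59, edgeR adjusted p 0.9999), with 0.00564% of genes called.

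ZFX and PHF8 did not pass the test in the libraries labelled ZNF711. ZFX differed from TRAC by −0.10 in AM and −0.12 in VM, averaged −0.11 (95% interval −0.31 to 0.08, edgeR adjusted p 0.818). PHF8 differed by −0.05 in AM and 0.13 in VM, averaged 0.04 (95% interval −0.23 to 0.31, edgeR adjusted p 0.955). These intervals contain both 0 and changes of up to about 0.3 on the log2 scale, so they do not show that the paralog was level. The interaction of target with protocol was 0.02 for ZFX (edgeR adjusted p 0.9999) and −0.18 for PHF8 (edgeR adjusted p 0.991).

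Targeting LHX2 or ZNF503 gave no call for any of the 3 genes either, and 0% of genes were called in those 4 comparisons. ZNF711 had its largest values with LHX2 in AM, 0.17 (SE 0.189, edgeR adjusted p 0.879), and with ZNF503 in VM, −0.28 (SE 0.194, edgeR adjusted p 1). ZFX ran from −0.06 to 0.18 and PHF8 from −0.16 to 0.02 over these 4 comparisons. Over the 6 comparisons with TRAC, 274 to 1666 genes had an unadjusted p below 0.05 in edgeR, and DESeq2 called 0 to 59 genes. With the replicate block edgeR called 201 genes for LHX2 in AM. Without a filter on low counts it called 136 for LHX2 in VM, and 16 and 4 for ZNF503 in AM and VM. None of the 3 genes was among those called in these 4 fits. The 3 targets share the TRAC libraries of each protocol.

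**Figure D3:**
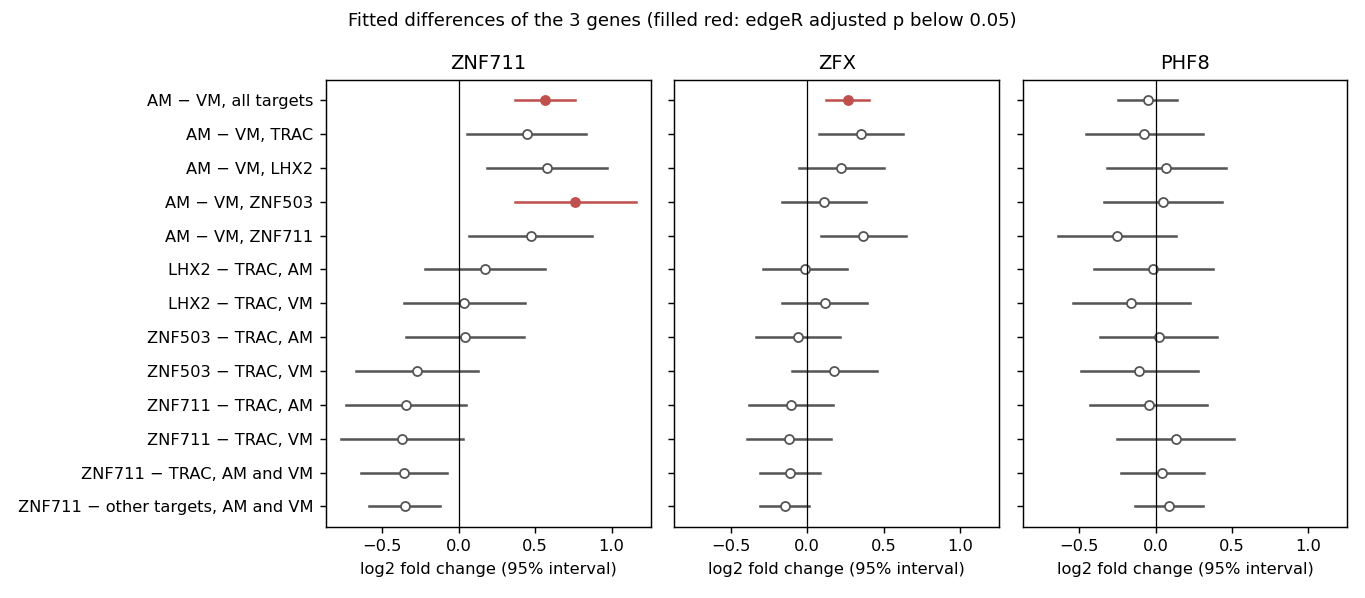
Fitted log2 fold changes (horizontal axis) with 95% intervals of ZNF711, ZFX and PHF8 in 13 comparisons, filled red where the edgeR adjusted p was below 0.05. The 3 red points are ZNF711 averaged over targets (0.56) and with ZNF503 (0.76), and ZFX averaged over targets (0.26).

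Across libraries of one protocol, ZFX and PHF8 moved in opposite directions in VM. The 4 VM libraries numbered 3 held 98.0 to 112 CPM of ZFX and 83.4 to 105 CPM of PHF8, and the 4 numbered 2 held 114 to 154 CPM of ZFX and 54.0 to 68.1 CPM of PHF8. Over the 12 VM libraries Pearson's r of their log2 CPM was −0.85 and Spearman's rho −0.88 (permutation p 0.00047 and 0.00051, two-sided, adjusted over 6 relations 0.0028 and 0.0031). It was −0.84 without the 2 libraries farthest from the median of ZFX and −0.86 between deviations from the group means. Counts of PHF8 per 100 ZFX counts were 37.4 to 107 in VM, with a median of 65.7, and 48.8 to 60.7 in AM, with a median of 54.4.

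The relation was smaller once replicate number was taken out. After the mean of each number was removed, r was −0.69 (permutation p 0.0128, n = 12), and with the libraries of 1 number left out it was −0.78 to −0.92 (exact permutation p 0.00226 to 0.0259, n = 8). These p-values were not adjusted over the 6 relations, and these checks were added after the data had been seen. The permutations, here and over the 12 VM libraries above, moved libraries freely across replicate numbers. Their p-values thus treat the libraries as independent and may be too small. The endoderm sum also went with the number in VM, with medians of 1993, 1895 and 13743 CPM for numbers 1, 2 and 3, and the cardiomyocyte sum had medians of 35914, 34198 and 15580 CPM. The part of cell composition in the relation was not tested. In AM the same relation was 0.16 (rho 0.06, permutation p 0.626, adjusted 0.626, n = 12).

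**Figure D4:**
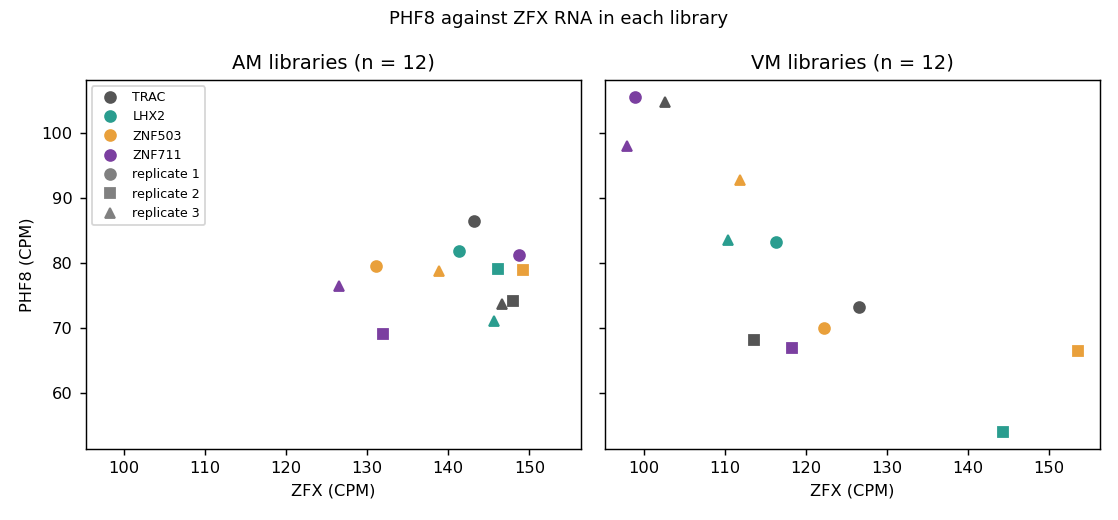
PHF8 CPM (vertical axis) against ZFX CPM (horizontal axis) in the 12 AM libraries (left) and the 12 VM libraries (right), coloured by target, with replicate number as marker shape. The VM points fall from the libraries at about 98.0 CPM of ZFX to VM ZNF503 replicate 2 at 154 CPM, and the AM points form 1 cloud.

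The other pairs of members showed no relation past the test. ZNF711 and ZFX had r = 0.54 in AM (rho 0.12, permutation p 0.0656, adjusted 0.197), which became −0.32 without AM ZNF711 replicates 2 and 3 and so rested on those libraries. In VM r was 0.42 (rho 0.43, permutation p 0.177, adjusted 0.316). ZNF711 and PHF8 had r = 0.36 in AM and −0.35 in VM (permutation p 0.256 and 0.264, adjusted 0.316 both, rho 0.46 and −0.34). Without the 2 farthest libraries these became 0.18 and −0.20.

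The genes most like each member were ranked by the smaller of Pearson's r over the 12 AM and over the 12 VM libraries, among 11428 genes. These correlations are a description over libraries that share depth and cell composition. Most like ZNF711 were KMT2E (0.79), PHKA1 (0.77) and ZNF81 (0.77), most like ZFX were NSUN3 (0.77), ARHGEF12 (0.75) and SGMS1-AS1 (0.75), and most like PHF8 were PNN (0.81), PLXNB1 (0.81) and PLXNA3 (0.80). KMT2E encodes a trithorax-related protein, PHKA1 a phosphorylase kinase subunit, PNN a splicing-associated protein, and PLXNB1 and PLXNA3 semaphorin receptors. Likeness within protocols did not fix the direction between them: ZNF81 was higher in AM like ZNF711, by 0.34 (edgeR adjusted p 0.0241), and PHKA1 lower, by −0.34 (edgeR adjusted p 0.0129). With a higher limit on expression, 1 of 3 genes stayed for ZNF711, 1 of 3 for ZFX and 3 of 3 for PHF8.

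Related genes were read from 6 lists, 53 tested genes besides the members. Between AM and VM 12 were higher and 7 lower, or 35.8%, close to the 34.5% of all genes, and their median log2 difference was 0.09 against −0.01 over all genes. Scaling by library size alone shifts these differences by 0.077 towards AM. Each of the 21 genes called, ZNF711 and ZFX included, differed by more than this, so a change of sign was not possible. In the ZFX and KDM7 families PHF2, the KDM7 demethylase most related to PHF8, was higher in AM by 0.31 (SE 0.066, edgeR adjusted p 0.000682), with 91.6 to 116.6 CPM in AM and 67.7 to 91.5 CPM in VM, without overlap. KDM7A, the remaining KDM7 enzyme, was at 36.2 to 74.1 CPM in AM and 39.7 to 76.5 CPM in VM, with no call. Of the 5 family members 3 were called higher and none lower, but ZNF711 and ZFX, reported above, are among these 3. PHF2 was the only further call, and the list median of 0.26 is the value of ZFX itself.

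Among 6 other H3K9 demethylases 1 was higher and 3 lower in AM, with a median of −0.09. KDM4A was higher by 0.37 (edgeR adjusted p 0.00527), and KDM4C and KDM3A were lower, at −0.38 (edgeR adjusted p 0.000496) and −0.22 (edgeR adjusted p 0.0121). KDM4A and KDM4C, both JmjC demethylases of 1 subfamily, therefore differed in opposite directions. Among 9 H3K9 and H4K20 methyltransferases, the writers of the marks that PHF8 removes, EHMT1 alone was called, higher by 0.23 (edgeR adjusted p 0.0181). The median of that list was 0.15.

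Of 12 genes of the H3K4 methylation machinery, which lays down or removes the mark that PHF8 reads, 2 were higher and 1 lower. The methyltransferase genes KMT2D and SETD1B were higher by 0.29 (edgeR adjusted p 0.00289) and 0.24 (edgeR adjusted p 0.00625), and ASH2L, a shared subunit of their complexes, was lower, at −0.19 (edgeR adjusted p 0.0396). The median was 0.06. KDM5C was at 311 to 395 CPM in AM and 319 to 400 CPM in VM, a log2 difference of −0.04 (95% interval −0.16 to 0.08, edgeR adjusted p 0.664). Its ranges coincided almost fully.

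PHF8 is also known to bind HCFC1 and E2F1 and to act on ribosomal DNA transcription. Of 10 such genes 3 were higher and 2 lower in AM, with a median of 0.07. UBTF, a ribosomal DNA transcription factor, was higher by 0.47 (SE 0.093, edgeR adjusted p 0.000262), with 110 to 194 CPM in AM and 84.6 to 147 CPM in VM. TAF1C, a subunit of the selectivity factor of RNA polymerase I, was higher by 0.32 (edgeR adjusted p 0.00921), and E2F1, a cell cycle transcription factor, was lower, at −0.32 (edgeR adjusted p 0.0388). Of 14 other X-linked intellectual disability genes for nuclear or ubiquitin proteins 4 were higher and 1 lower, with a median of 0.12. MED12, a Mediator subunit gene, and ZNF41, a zinc-finger gene, were higher by 0.38 and 0.44 (edgeR adjusted p 0.000941 and 0.00693).

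**Figure D5:**
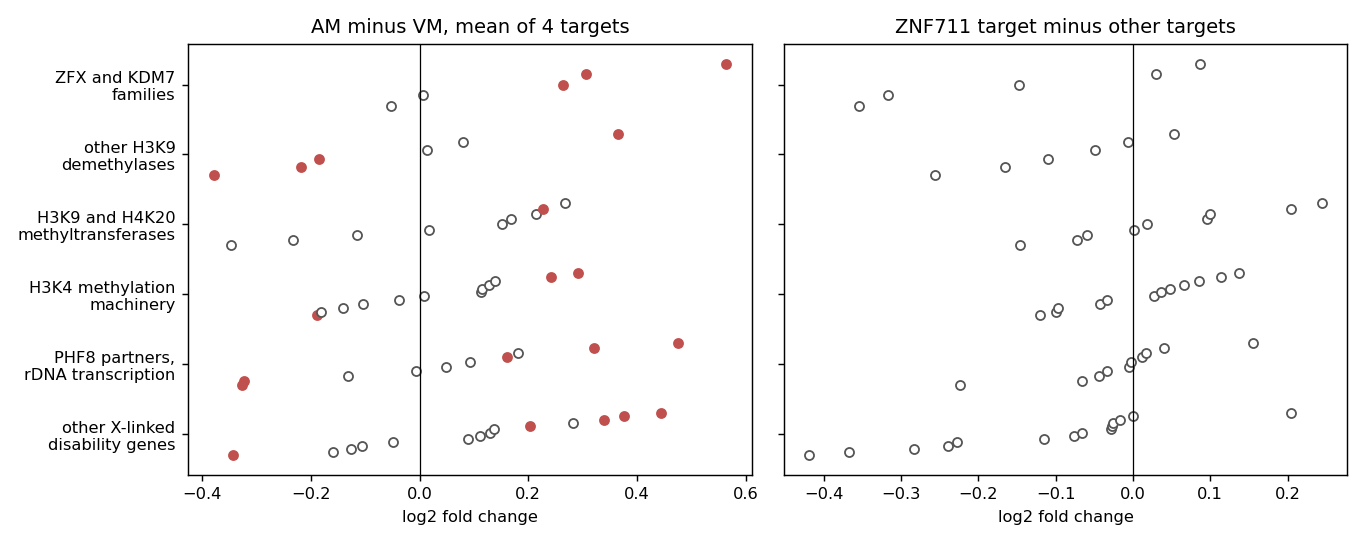
Log2 fold changes (horizontal axis) of the genes of 6 lists (rows, 1 point per gene, ZNF711, ZFX and PHF8 in the first row) for AM minus VM averaged over targets (left) and for ZNF711 as target against the mean of the other targets (right), filled red where the edgeR adjusted p was below 0.05. Red points lie on both sides of 0 on the left, and there are 0 on the right, where 0.0169% of all tested genes were called.

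In the main edgeR fit (TMM, no replicate block) none of these 53 genes was called in any comparison of the libraries labelled ZNF711 with others. Of all tested genes 0% to 0.0169% were called in those comparisons, so the lists were like nearly all other genes in this fit. The other settings were not read for the 53 genes in these comparisons. With the replicate block 1411 genes, or 7.96% of all, were called against the mean of the other targets. Against the mean of the other targets 9 of the 53 had an unadjusted p below 0.05 in edgeR, as had 2351 of all 17724 tested genes. The lowest adjusted p of the 53 was 0.237, and their median was −0.03. KDM5C differed from TRAC by −0.0048 in AM, 0.07 in VM and 0.03 on average (95% interval −0.14 to 0.21, edgeR adjusted p 0.941). The interval excludes a fall of more than 0.14 on the log2 scale and a rise of more than 0.21 at the 95% level.

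Nearest protein-coding neighbours on the X chromosome, 3 on each side, were read for each gene. Over all genes 16.8% were called higher in AM and 17.6% lower, 34.5% in all. Of the 6 neighbours of ZNF711, 4 were higher in AM and none lower, among them HDX at 1.02 (edgeR adjusted p 6.39e-05) and CHM, which encodes a Rab escort protein, at 0.38 (edgeR adjusted p 0.00015). POF1B, 4039 bases from ZNF711, and DACH2 were also called higher, at 2.58 and 6.41 (edgeR adjusted p 1.13e-05 and 1.75e-14). POF1B had 0 to 53 counts in a library and DACH2 0 to 432, so the sizes of these differences are uncertain. SATL1, which shares the start region, was at 0.76 (SE 0.413, edgeR adjusted p 0.169) on few counts. The 3 tested neighbours of ZFX were all lower in AM while ZFX was higher: EIF2S3 at −0.30, KLHL15 at −0.42 and PDK3 at −0.23 (edgeR adjusted p 0.000912, 0.000187 and 0.00357). Of the 5 tested neighbours of PHF8, WNK3 was called, higher by 0.29 (edgeR adjusted p 0.0154). With ZNF711 as target none of these 14 tested neighbours was called against TRAC by edgeR, averaged over protocols, where 0.00564% of all genes were called.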

How the data were processed

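The values were the authors' deposited gene counts for 24 libraries. The submitters' processing notes name the aligner STAR and the build GRCh38, without versions or settings. The counting program, its use of strand and annotation release are not given in the sources used here. The labels name both polyA RNA and the KAPA RiboErase kit. Symbols came from the supplied gene name tables, spans and exon lengths from GENCODE 29, and promoters from RefSeq GRCh38.p14.

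Genes were kept by filterByExpr and fitted with edgeR 4.0.16 (R 4.3.3, quasi-likelihood, robust, TMM) with 1 mean per group over all 24 libraries, Benjamini-Hochberg over the 17724 tested genes, and a call below 0.05. The biological coefficient of variation was 25.0%. SE is the log2 fold change over the square root of F. Log2 CPM used a prior count of 2. Counts limit precision by counting error and by the spread between samples. The fit was tested on simulated counts.

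The genes named were the 3 members, the list genes called (at most 3 lowest adjusted p per list), KDM5C, the nearest neighbours and the genes most alike. A gene within this rule is not reported here. Members and lists were chosen with earlier results of these data known.

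Alternatives were scaling by relative log expression (RLE) or library size, DESeq2 1.42.0, a block on replicate number, other filters (none, or 1 CPM in 3 libraries), a fit restricted to the groups compared, and fits without 1 library or 1 replicate number. Whether numbers pair libraries was checked over 11428 genes: deviations from group means of same-numbered libraries correlated by 0.17 to 0.79 within a protocol (36 pairs) and 0.12 to 0.52 within a target (12 pairs). Same-numbered libraries that shared neither protocol nor target correlated by 0.05 to 0.61 (36 pairs). The values within a target therefore do not single out a pairing by target. All the correlations were positive, so same-numbered libraries deviated together across groups. The main fit left the number out, so it did not take this shared deviation into account, and the number was fitted as a block only as an alternative. The choice matters for the calls. ZNF711 against the mean of the other targets had an edgeR adjusted p of 0.230 without the block and 0.0224 with it. The labels do not say what the number stands for.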

Additional observations from a re-analysis of the deposited data

How the results depend on the processing

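Over the settings with all libraries kept, 275 of 288 values for the 3 genes kept direction and side of the threshold, 6 became called and 7 changed sign. With library size alone, ZNF711 in AM against VM within LHX2 was 0.68 and ZFX within ZNF711 0.43, both called. PHF8 turned to 0.028 averaged over targets and to 0.0038 within TRAC, and LHX2 against TRAC in AM gave 0.042 for ZFX and 0.043 for PHF8. This scaling moved all genes by at most 0.097. With only the groups compared those last values were 0.0013 and 0.0016, and without a filter the ZFX interaction was −5.0e-05. The replicate block changed 4 calls: AM against VM for ZNF711 within LHX2 (0.57), for ZFX within TRAC (0.35) and within ZNF711 (0.37), and ZNF711 with ZNF711 as target against the other targets (−0.36). It changed no other call of the members. In fits that left out 1 library or 1 replicate number, 1074 of 1134 values were on the same side, 5 lost a call, 5 gained one and 50 changed sign, and the cause was not tested. The ranges of the values with such changes follow. AM against VM averaged ran from 0.20 to 0.35 for ZFX and −0.17 to 0.11 for PHF8. AM against VM within TRAC ran from −0.22 to 0.19 for PHF8. AM against VM within LHX2 ran from 0.43 to 0.70 for ZNF711 and −0.12 to 0.23 for PHF8. AM against VM within ZNF503 ran from 0.58 to 0.94 for ZNF711 and −0.037 to 0.22 for PHF8. AM against VM within ZNF711 ran from 0.23 to 0.65 for ZNF711 and 0.26 to 0.49 for ZFX. LHX2 against TRAC in AM ran from −0.067 to 0.061 for PHF8. ZNF503 against TRAC in AM ran from −0.056 to 0.22 for ZNF711 and −0.020 to 0.096 for PHF8. ZNF711 against TRAC in AM ran from −0.10 to 0.032 for PHF8. LHX2 against TRAC in VM ran from −0.098 to 0.22 for ZNF711, −0.018 to 0.23 for ZFX and −0.33 to 0.052 for PHF8. ZNF503 against TRAC in VM ran from −0.26 to 0.11 for PHF8. ZNF711 against TRAC in VM ran from −0.079 to 0.33 for PHF8. ZNF711 against TRAC averaged ran from −0.053 to 0.14 for PHF8. The interaction ran from −0.30 to 0.26 for ZNF711, −0.19 to 0.15 for ZFX and −0.40 to 0.052 for PHF8. The correlation of ZFX and PHF8 in VM kept its sign in 6 of 6 alternatives. Permutation p was 0.00045 to 0.0259, with libraries treated as independent and not adjusted over the 6 relations.

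The count of genes called moved more than the members did. Averaged over targets it was 6107, and 4064 without replicate number 2. Within targets it was 1517 to 2345, 995 with only the groups compared for TRAC, and 2642 to 4150 with the block. Without replicate number 2 it was 690 for TRAC, 449 for LHX2, 531 for ZNF503 and 636 for ZNF711. With ZNF711 as target in VM it was 3, and 495 without a filter or 897 without replicate number 3. Against the mean of other targets it was 3, and 1411 with the block.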
